A study of Mus musculus with 6 samples.

Results

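The proteasome genes of KPC pancreatic cancer cells were compared between cells with a short hairpin RNA against Brca2 and cells with a non-targeting hairpin. A gene was taken as a member when its symbol began with Psm, a letter from a to g and a digit, which gave 45 of the 10616 genes in the count table. Of these, 44 encode proteasome subunits, regulators or assembly factors. The other, Psmc3ip, carries the name but encodes a partner of the meiotic recombinases and has no known place in the proteasome. The name rule covers no other subunit, so Sem1, Adrm1 and Pomp were followed separately. Psma8, Psmb8, Psmb9, Psmb11 and Psmd9 were not analysed here.

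KPC cells are a mouse pancreatic ductal adenocarcinoma line, and the libraries labelled shBrca2 and shControl differ in the hairpin only, as far as the labels say. Both hairpins were delivered in the pLKO.1 lentiviral vector, followed by puromycin selection, so the controls were transduced and selected too. A hairpin lowers the transcript and does not delete the gene, and with 1 hairpin population per group the effect of Brca2 loss and any other effect of the hairpin cannot be told apart. Cells were grown in culture for 2 days, stained with propidium iodide, and live cells were sorted for 3' end RNA sequencing, with 3 libraries per group. Whether each library had a culture of its own is not stated in the labels, and the study's own text gives mice as the unit of n although the cells were cultured. The p-values therefore rest only on counting error and the spread between these libraries, and that spread may be technical.

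The proteasome is the main protease of the cytosol and nucleus for proteins tagged with ubiquitin. Its barrel, the 20S core, stacks outer rings of alpha subunits, which gate entry, on inner rings of beta subunits, some of which carry the catalytic sites. The 19S regulator caps the barrel: a base with ATPases unfolds the substrate, and a lid removes ubiquitin. Other activators can take the place of the 19S regulator, dedicated chaperones build the rings, and interferon can swap the catalytic subunits for inducible ones that favour antigen peptides.

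The libraries were examined before the genes. Total counts ran from 1519340 to 2452467, and between 10532 and 10593 genes were detected in each library. Brca2 had raw counts of 10, 11 and 14 in shBrca2 and 33, 52 and 33 in shControl. Its log2 fold change, -1.61 ± 0.44 (SE), was called with an adjusted p of 0.029 (DESeq2 likelihood ratio test), and all shBrca2 libraries were lower than all shControl libraries. The call was lost in 3 of the 6 fits that each left out a library, with adjusted p-values from DESeq2 up to 0.371, and DESeq2 gave no adjusted p with TMM factors or a count filter. The first principal component, over genes averaging 10 or more raw counts, took 40.9% of the variance. Its scores were -0.42, 0.023 and -0.43 in shBrca2 and -0.18, 0.26 and 0.74 in shControl, so the groups leaned apart but overlapped, and shControl replicate 3 lay farthest out. Of 5 epithelial markers, Krt8, Krt18, Krt19 and Cdh1 were well expressed and Epcam had a mean of 6.52 normalized counts. The 5 markers together took from 7907 to 8175 CPM (counts scaled to the library total) in shBrca2 and from 8345 to 9096 in shControl. Of 7 fibroblast markers only Col1a2 was listed, at 3.91 to 10.5 CPM, and of 8 immune markers only Cd68, at 5.24 to 9.87, while Ptprc was not analysed here.

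None of the 45 proteasome genes met the study's rule for a changed gene, which sets the adjusted p below 0.1, the log2 fold change beyond 0.5 in either direction and the base mean (the mean normalized count of all libraries) above 5. All 45 passed the filter on low counts. Over all genes with an adjusted p, 1.27% met the rule. The same count of 0 was found with the DESeq2 Wald test, where 1.4% of all genes were called, and with the edgeR quasi-likelihood test, where 1.33% were. At an unadjusted p under 0.05, DESeq2 picked 3 of the 45 genes, Psma7, Psma5 and Psmd6, beside 8.33% of all genes. At the same limit edgeR picked 2, beside 14.5% of all genes. The median log2 fold change of the 45 genes was -0.038, with 20 genes higher and 25 lower, and the median of all genes was -0.00034, with 49.9% of them higher. The fold changes lay between -0.33 for Psme3 and 0.46 for Psma7.

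The precision of these values set what could have been seen. Standard errors of the log2 fold change ran from 0.13 to 0.45, with a median of 0.19. The 95% interval from the DESeq2 fit lay wholly inside a log2 change of 1 in either direction for 43 of the 45 genes, and inside 0.5 for 17. The exceptions at the wider limit were Psma3 and Psme2b, which had means of 22.2 and 19.6 normalized counts. For most members a log2 change of 0.5 thus lay inside the interval, and its absence was not shown.

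**Figure D1:**
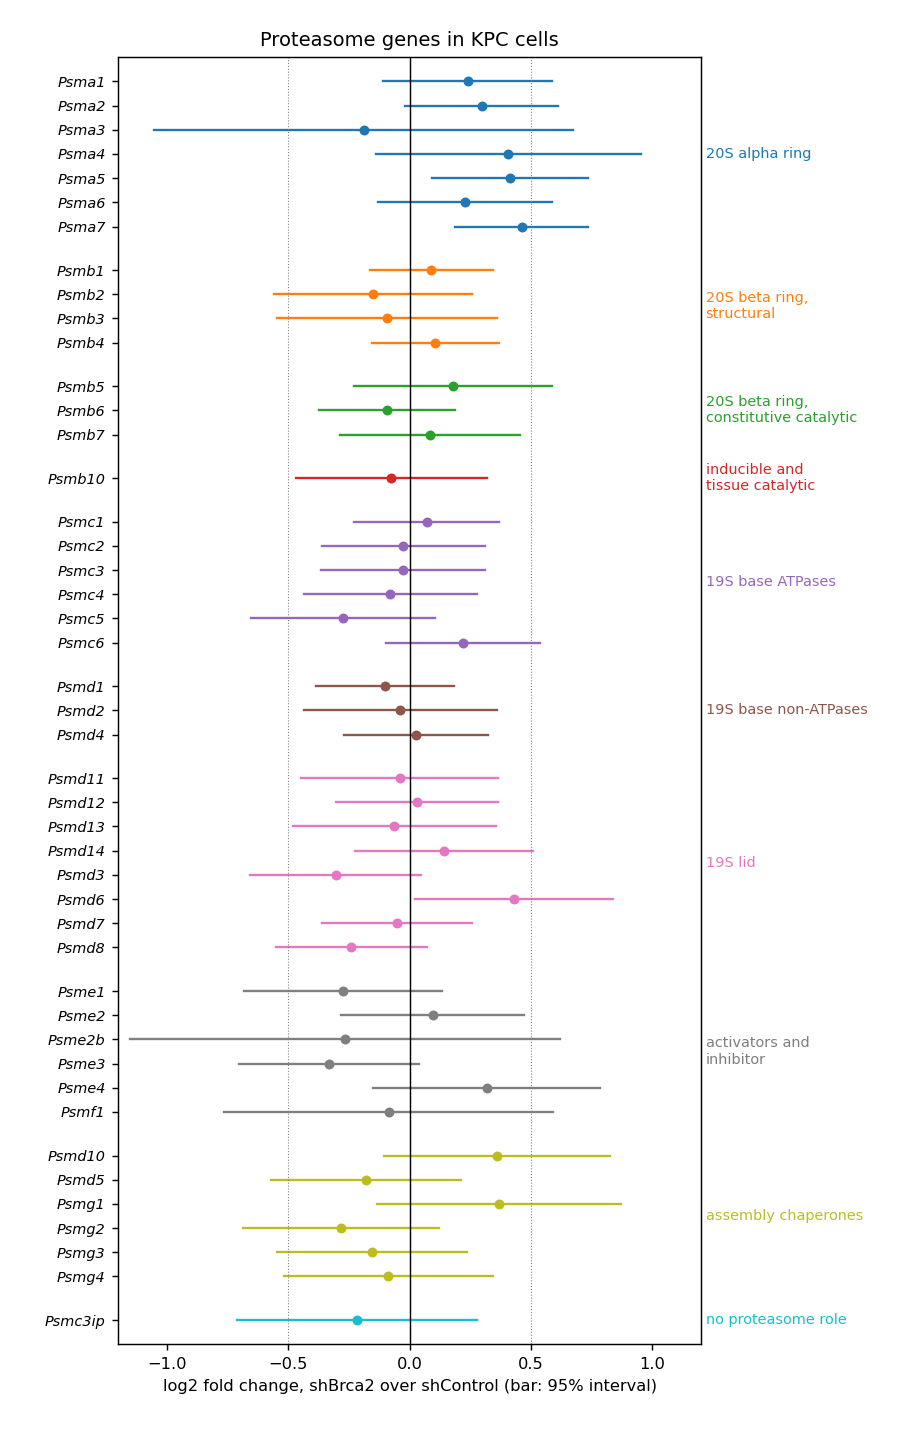
Log2 fold change of 45 genes named as proteasome genes, shBrca2 over shControl, on the horizontal axis, with genes grouped by subcomplex on the vertical axis. Points are DESeq2 estimates, bars are 95% intervals and dotted lines mark a log2 fold change of 0.5 in either direction. Of the 7 alpha ring genes, 6 sit to the right of 0, while the other subcomplexes scatter on both sides.

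The alpha ring of the 20S core was the subcomplex with the highest median, 0.30 on the log2 scale over 7 genes, of which 6 were higher and 1 was lower in shBrca2. None of the 7 was called. Psma7 had the smallest p of all members and was the only one with an adjusted p under 0.1. It lies on chromosome 2 (180036367 to 180042464, GRCm38.p6, the RefSeq release of the mm10 build named in the labels) and overlaps the protein-coding gene Ss18l1 on the opposite strand, whose reads cannot be told apart without strand. Its normalized counts (counts divided by the library's size factor) were 1527, 1483 and 1769 in shBrca2 and 1089, 1183 and 1195 in shControl. Every shBrca2 library was above every shControl library. The means were 1593 ± 154 and 1156 ± 58.1 (SD, n = 3), and the log2 fold change was 0.46 ± 0.14 (SE), with a 95% interval from 0.19 to 0.74 and an adjusted p, from DESeq2, of 0.0816. Psma7 thus missed the rule by its size, as the estimate was under 0.5. Without a fold change minimum 1.32% of all genes passed, Psma7 among them. By edgeR its adjusted p was 0.14.

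Psma5 (chromosome 3, 108256926 to 108279952) showed the next smallest p. Its normalized counts were 526, 507 and 639.6 in shBrca2 and 392, 403 and 462 in shControl. These groups did not overlap either. The log2 fold change was 0.41 ± 0.17 (SE), with DESeq2 giving an adjusted p of 0.335. Psma5 has a processed copy, Psma5-ps, in the genome, so the assignment of its reads is uncertain. Psma2 (chromosome 13, 14613242 to 14625673) had 1223, 1093 and 1289 normalized counts in shBrca2 and 877, 881 and 1177 in shControl. Its groups overlapped through shControl replicate 3, and its log2 fold change was 0.30 ± 0.16 (SE, adjusted p = 0.622 by DESeq2).

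The remaining alpha subunits had wider overlap. Psma1 had 539, 650.4 and 548 normalized counts in shBrca2 and 397, 491 and 585 in shControl. Psma4 ran from 95.7 to 139 in shBrca2 and from 56.6 to 115 in shControl, and Psma6 from 358 to 399 and from 264 to 392. The log2 fold changes of Psma1, Psma4 and Psma6 were 0.24, 0.41 and 0.23. Leaving out each library in turn moved them between 0.11 and 0.38, between 0.19 and 0.68 and between 0.093 and 0.38. Psma3 was the subunit that went lower, with 17.7, 18.9 and 25.2 normalized counts in shBrca2 and 30.3, 19.3 and 21.8 in shControl, a log2 fold change of -0.19 ± 0.44 (SE). Every alpha ring holds Psma3 alongside the other subunits, yet its 3' end counts, which do not grow with transcript length and were not divided by it, were far under those of Psma7. Psma3 overlaps the noncoding genes 3110056K07Rik and Gm59491 on the opposite strand.

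**Figure D2:**
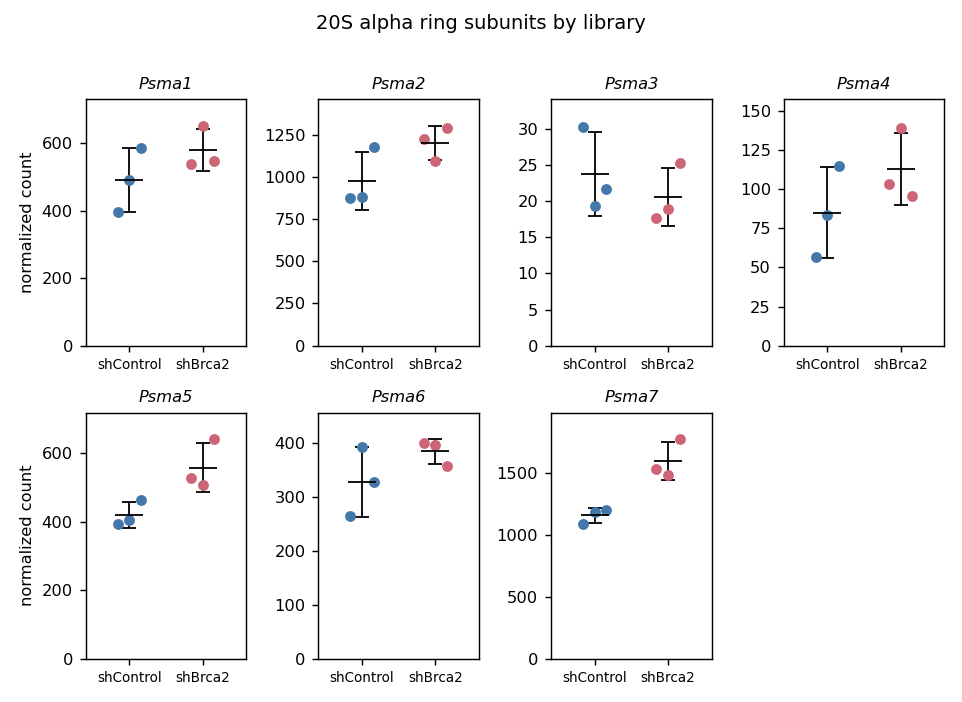
Normalized counts of the 7 alpha ring genes in each library, with 3 shControl and 3 shBrca2 points per panel and the mean and SD as bars. The vertical axes start at 0 and differ between panels. The groups are apart for Psma5 and Psma7 and overlap for the other genes.

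The lean of the alpha ring rested partly on the controls. In 6 of the 7 genes, all but Psma3, the lowest library was shControl replicate 1. The alpha ring took 0.209%, 0.207% and 0.230% of all counts in shBrca2 and 0.147%, 0.168% and 0.192% in shControl. Its shares did not overlap between the groups, and over all single genes 20.3% did not overlap. The ring was singled out for its median, and the shares come from the same counts, so they are no separate support. The group means were 0.215 ± 0.0128% and 0.169 ± 0.0228% (SD, n = 3). The median log2 fold change of the ring was 0.19 without shControl replicate 1 and 0.45 without shControl replicate 3. For Psma7 the log2 fold change ranged from 0.38 to 0.51 over the 6 fits that each left out a library, and its adjusted p by DESeq2 from 0.064 to 0.342. It was called only without shBrca2 replicate 2, where the estimate passed 0.5, and in the other 5 fits its adjusted p was over 0.1.

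Promoter sequences of the members were read from RefSeq (GRCm38.p6) and searched for binding motifs. A window of 250 bases before the start was found for 38 of the 45 genes and for 27025 genes in all. Searched on both strands, the CCAAT box, which the factor NF-Y binds, stood in 34.2% of the member windows and 34.5% of all windows. Among the alpha ring genes 5 of 7 windows held it, those of Psma1, Psma2, Psma3, Psma6 and Psma7. It stood in 2 of 5 windows of the base ATPases, 1 of 3 of the other base subunits and 1 of 6 of the lid. The activators held it in 1 of 6, the assembly chaperones in 1 of 5, the structural beta subunits in 1 of 2 and the constitutive catalytic subunits in 0 of 2. The alpha ring was singled out for its median, and a relation of the box to the fold changes was not tested. The antioxidant response core TGANNNNGC, which Nfe2l1 and Nfe2l2 recognise, stood in 31.6% of member windows and 35.1% of all, and the heat shock core GAANNTTC in 5.26% and 6.78%. The motifs do not contain each other, and a match is a description of the sequence only. Shown here are 25 bases around the CCAAT letters nearest the start, with 10 bases kept on each side, for each of the 5 alpha ring genes, 5′ to 3′ on the strand of the gene, with the box in capitals, since these genes form the subcomplex with the highest median.
Psma1 (chr7:114276200-114276224, minus strand): gagcttcctgCCAATcccacgttct
Psma2 (chr13:14613178-14613202, plus strand): tgactctcctCCAATcagagcaaag
Psma3 (chr12:70974474-70974498, plus strand): cttagctcttCCAATaccagtttca
Psma6 (chr12:55384183-55384207, plus strand): ccactaggtgCCAATggaattcctg
Psma7 (chr2:180042646-180042670, minus strand): ctgcctgtcgCCAATgcgcgctcga

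The boxes shown all stood on the gene's own strand (Psma1 and Psma6 each held another on the opposite strand), and began 98, 54, 139, 29 and 196 bases before the start in the order shown. For Psma3 the listed start lies inside the gene's span in RefSeq (chromosome 12, 70969283 to 70995877), so that window is not at the gene's outermost start. The windows of Psma4 and Psma5 held no CCAAT box. The whole window of Psma7, the member with the smallest p, is shown with its only match to the 3 searched motifs, the CCAAT box, in capitals.
Psma7 (chr2:180042465-180042714, minus strand): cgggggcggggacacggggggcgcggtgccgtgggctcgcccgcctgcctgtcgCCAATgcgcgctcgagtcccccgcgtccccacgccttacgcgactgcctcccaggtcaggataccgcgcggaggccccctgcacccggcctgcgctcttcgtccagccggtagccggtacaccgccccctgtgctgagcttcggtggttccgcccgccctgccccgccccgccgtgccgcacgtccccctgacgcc

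The beta rings did not share the lean of the alpha rings in their median estimates, though the difference between the rings was not tested. The structural subunits Psmb1, Psmb2, Psmb3 and Psmb4 had a median log2 fold change of -0.0022, with 2 higher and 2 lower. Their share of all counts was higher in shBrca2, at 0.239 ± 0.0095% beside 0.227 ± 0.0058% in shControl (SD, n = 3). The libraries of the groups overlapped in that share. Psmb4 was the most abundant member by 3' end count, with 2845, 2548 and 2949.9 normalized counts in shBrca2 and 2758, 2465 and 2526 in shControl. Its groups overlapped, and its log2 fold change was 0.11, with a 95% interval from -0.15 to 0.37. Psmb1 had 1598, 1534 and 1676 normalized counts in shBrca2 and 1527, 1511 and 1480.2 in shControl. The Psmb1 groups were just apart, at a log2 fold change of 0.09 ± 0.13 (SE, adjusted p = 0.939 by DESeq2).

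The catalytic subunits differed by less than their spread. Psmb5 carries the chymotrypsin-like site, which proteasome inhibitors used in the clinic target. It had 154, 167 and 222 normalized counts in shBrca2 and 166, 152 and 165 in shControl, a log2 fold change of 0.18 with a 95% interval from -0.23 to 0.59. Psmb6, with the caspase-like site, had 1061, 989.7 and 858 in shBrca2 and 1026, 1012 and 1059 in shControl. Its log2 fold change was -0.092, with an interval from -0.37 to 0.19. Psmb7, with the trypsin-like site, had 248, 352 and 286 in shBrca2 and 278, 247 and 313 in shControl, and its log2 fold change was 0.084, with an interval from -0.29 to 0.46. All 3 have processed copies in the genome (Psmb5-ps, Psmb6-ps and Psmb6-ps2, Psmb7-ps1 and Psmb7-ps2), so reads may have been split or dropped in counting.

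Of the inducible catalytic subunits Psmb10, which replaces Psmb7 in the immunoproteasome, was the only one analysed. It had 192, 223 and 262 normalized counts in shBrca2 and 285, 221 and 211 in shControl. The ranges overlapped in part, with shBrca2 replicate 1 the lowest and shControl replicate 1 the highest, at a log2 fold change of -0.074 and an interval from -0.47 to 0.32. Its mean was 232 normalized counts and that of Psmb7 was 287 on the same scale of 3' end counts. The companions of the immunoproteasome in antigen processing held 0 called genes by DESeq2 among the 9 analysed of 13. Over all genes with an adjusted p, 1.27% were called. At an unadjusted p under 0.05, DESeq2 picked 2 of the 9, H2-K1 and Pdia3, beside 8.33% of all genes. H2-K1, a classical MHC class I heavy chain, had 202, 199 and 174 normalized counts in shBrca2 and 303, 292 and 221 in shControl. These groups did not overlap, and the log2 fold change was -0.51 ± 0.19 (SE, adjusted p = 0.288 by DESeq2). H2-K1 is 1 of a family of close paralogs, so its count is uncertain. H2-D1, another class I heavy chain, had a log2 fold change of 0.24, and Pdia3, a chaperone of peptide loading, had 0.37 ± 0.18 (SE, adjusted p = 0.554 by DESeq2). These 3 genes were singled out after their values were seen.

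The activators that dock on the barrel in place of the 19S regulator numbered 6 genes with the inhibitor Psmf1 included, and their median log2 fold change was -0.18, with 2 higher and 4 lower. Psme1 and Psme2 encode the interferon-inducible PA28 alpha and beta chains. Psme1 had 533, 318 and 344 normalized counts in shBrca2 and 410.2, 564 and 464 in shControl. Its shBrca2 libraries were split, with replicate 1 near the highest control, and its log2 fold change of -0.27 ± 0.21 (SE) ranged from -0.54 without that library to -0.14 without shBrca2 replicate 2. Psme2 had 277, 211 and 312 in shBrca2 and 249.6, 263 and 235 in shControl, a log2 fold change of 0.095 ± 0.19 (SE). The paired chains thus had estimates of opposite sign, and both 95% intervals held 0. Psme2b, a copy of Psme2 that can share its reads, had between 17.02 and 23.7 normalized counts.

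Psme3, which forms the nuclear PA28 gamma ring, had 222, 205 and 184 normalized counts in shBrca2 and 233, 236 and 297 in shControl. All shBrca2 libraries were lower than all shControl libraries. The log2 fold change was -0.33 ± 0.19 (SE), the lowest of the members (adjusted p = 0.666 by DESeq2). Psme4, the large single-chain activator PA200, had 185, 199 and 239 in shBrca2 and 119, 153 and 229 in shControl, which overlapped through shControl replicate 3. Its log2 fold change was 0.32 ± 0.24 (SE), and ranged from 0.13 without shControl replicate 1 to 0.61 without shControl replicate 3.

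**Figure D3:**
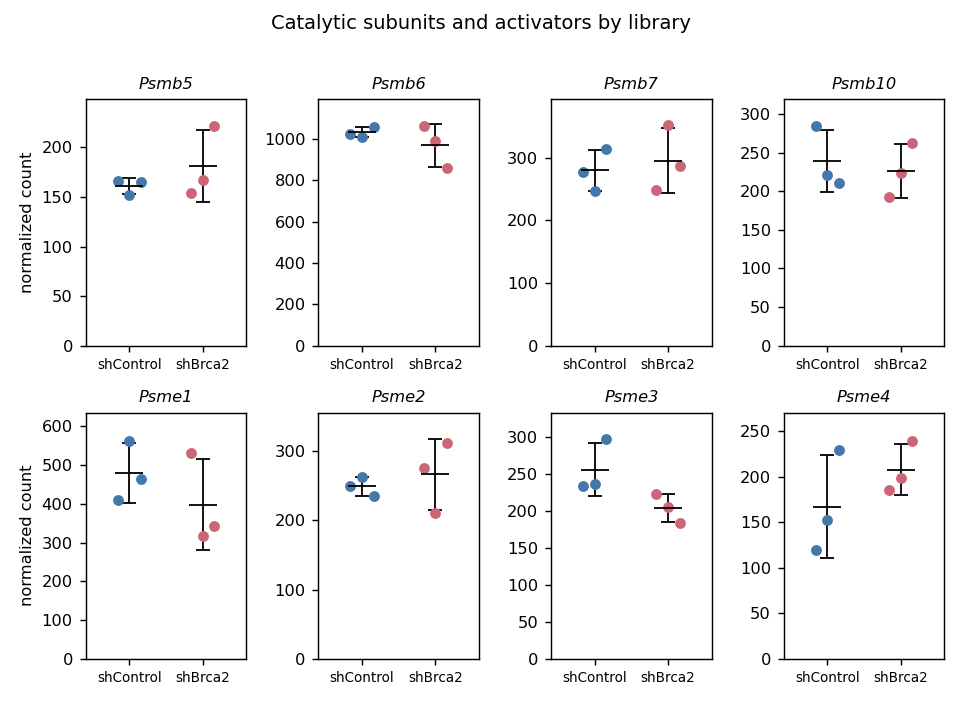
Normalized counts of the catalytic subunits Psmb5, Psmb6, Psmb7 and Psmb10 (upper row) and of the activators Psme1 to Psme4 (lower row), with 3 shControl and 3 shBrca2 points per panel and the mean and SD as bars. The vertical axes start at 0 and differ between panels. The groups overlap in every panel but that of Psme3.

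The 19S base held 6 ATPases, whose ring pulls the substrate into the barrel, and 3 scaffold or receptor subunits. The ATPases had a median log2 fold change of -0.025, with 2 higher and 4 lower. Psmc5 had 159, 157 and 141 normalized counts in shBrca2 and 194, 178 and 179.95 in shControl. Its groups did not overlap, and its log2 fold change was -0.27 ± 0.19 (SE, adjusted p = 0.789 by DESeq2). Psmc5 overlaps Smarcd2 on the opposite strand. Psmc6 was the ATPase with the highest estimate, at 0.22, and Psmc1, Psmc2, Psmc3 and Psmc4 lay between -0.079 and 0.071. Of the scaffolds, Psmd1 and Psmd2 had log2 fold changes of -0.10 and -0.038, and the ubiquitin receptor Psmd4 had 0.027, with an interval from -0.27 to 0.32.

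The lid gave the member with the third smallest p. Psmd6 (chromosome 14, 14112185 to 14120945), a structural lid subunit, had 572, 458 and 654 normalized counts in shBrca2 and 535, 413 and 304 in shControl. The groups overlapped, with shControl replicate 3 lowest and shControl replicate 1 above the lowest shBrca2 library. The log2 fold change was 0.43 ± 0.21 (SE, adjusted p = 0.541 by DESeq2). It moved to 0.24 without shControl replicate 3 and to 0.64 without shControl replicate 1, where the adjusted p was 0.123. Psmd14, the deubiquitinase of the lid, had its lowest value in the same library, with 652, 580.4 and 650.01 in shBrca2 and 679, 614 and 412 in shControl. Its log2 fold change of 0.14 moved to -0.045 without shControl replicate 3.

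Other lid genes leaned lower. Psmd3 had 264, 366 and 271 normalized counts in shBrca2 and 389, 362 and 364 in shControl, a log2 fold change of -0.30 ± 0.18 (SE), and overlapped only through shBrca2 replicate 2. Leaving out each library in turn gave estimates from -0.47, without that library, to -0.22, without shBrca2 replicate 1. Psmd8 had 612, 729 and 627 in shBrca2 and 669.9, 803 and 849 in shControl, a log2 fold change of -0.24 ± 0.16 (SE). DESeq2 gave Psmd3 an adjusted p of 0.695 and Psmd8 one of 0.751. Over the 8 lid genes the median was -0.046, with 3 higher and 5 lower, so Psmd6 and Psmd3, which sit in the same lid, had estimates of opposite sign.

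The median over the 6 assembly chaperones was -0.12 on the log2 scale. Psmg1 and Psmg2 encode partners of a heterodimer that starts the alpha ring. Psmg1 had 101, 89.8 and 93.1 normalized counts in shBrca2 and 88.9, 72.1 and 58.3 in shControl, which did not overlap. Its log2 fold change was 0.37 ± 0.26 (SE, adjusted p = 0.783 by DESeq2), while that of Psmg2 was -0.28 ± 0.21 (SE). Psmd10, a chaperone of the base also known as gankyrin, had 0.36 ± 0.24 (SE) on the log2 scale, and Psmd5, another chaperone of the base, had -0.18. Psmg3 and Psmg4 had -0.15 and -0.087. Psmc3ip, the gene with no proteasome role, had 72.2, 77.5 and 68.7 normalized counts in shBrca2 and 94.98, 77.99 and 81.1 in shControl, and a log2 fold change of -0.22 ± 0.25 (SE).

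Groups that did not overlap were found for 8 of the 45 genes, Psma5, Psma7, Psmb1 and Psmg1 higher in shBrca2 and Psmc3ip, Psmc5, Psme2b and Psme3 lower. Over all genes 20.3% did not overlap, so the members were near that level. All proteasome genes together took 1.02%, 1.01% and 1.05% of counts in shBrca2 and 0.943%, 0.985% and 1.02% in shControl. The group means were 1.03 ± 0.0203% and 0.983 ± 0.0384% (SD, n = 3), which overlapped. Their difference was 0.047 percentage points and that of the alpha ring was 0.0466, while the other subcomplexes had differences of either sign, from -0.0041 to 0.0121. Abundant genes weigh most in such shares. In the alpha ring Psma7 and Psma2 had the highest means, 1374.5 and 1089.9 normalized counts, and neither was called. As each library pooled many sorted cells, a change in the share of cells that express a gene and a change in RNA per cell cannot be told apart.

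**Figure D4:**
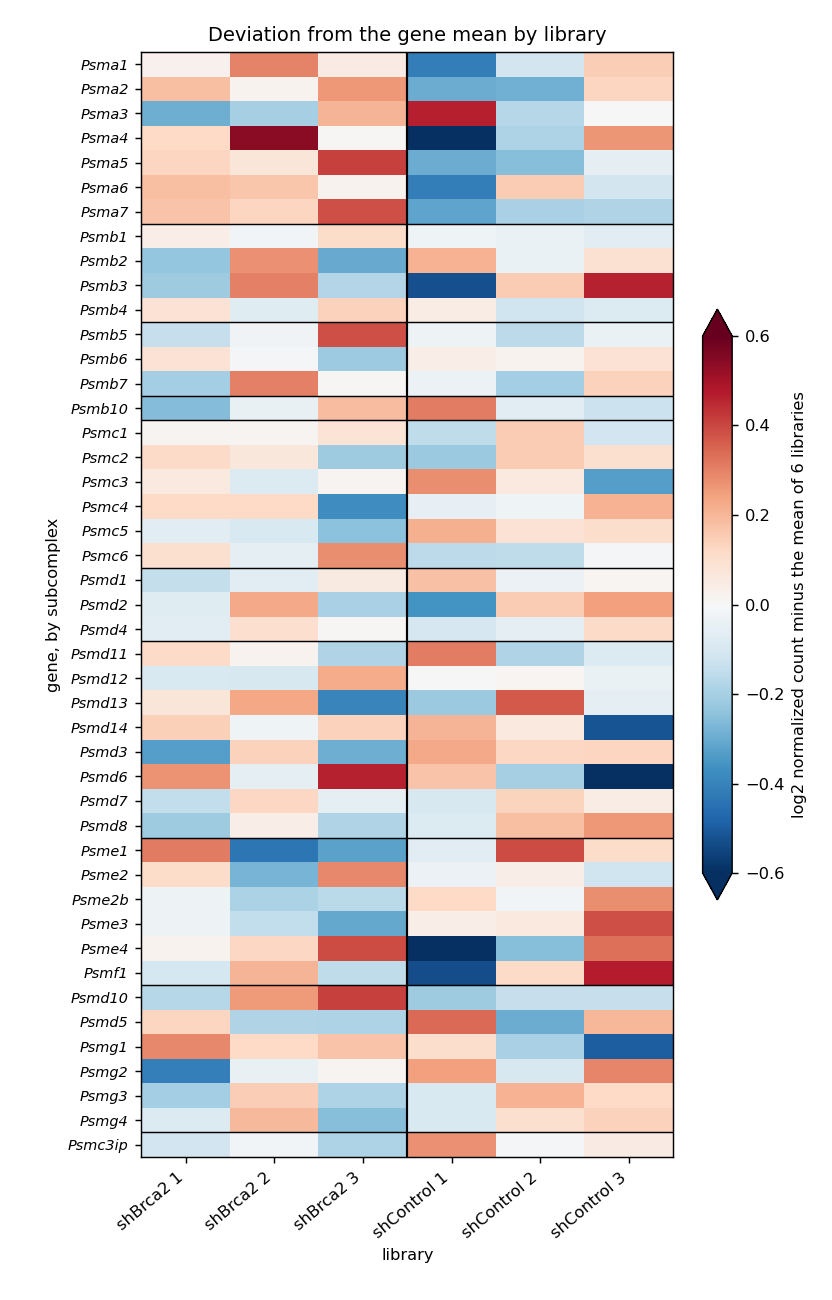
Log2 normalized count of each proteasome gene minus its mean over the 6 libraries, with libraries in columns, genes in rows and subcomplexes separated by black lines. Red is higher and blue is lower than the gene's mean, with colors capped at 0.6 in either direction. The alpha ring is mostly red in shBrca2 and blue in shControl replicate 1, and Psmd6, Psmd14 and Psmg1 are bluest in shControl replicate 3.

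Library patterns crossed the hairpin groups. The highest value of a gene fell in shBrca2 replicate 3 for 12 genes and in shControl replicate 1 for 10, and the lowest fell in shControl replicate 1 for 15. The library farthest out on the first principal component, shControl replicate 3, was the highest for 9 members and the lowest for 5. The part of that component in the results on single genes was not tested.

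Proteasome components and regulators outside the Psm names were also examined. Of 23 listed, 20 were analysed, and 0 were called by DESeq2, beside 1.27% of all genes with an adjusted p. At an unadjusted p under 0.05, DESeq2 picked 2 of the 20, Rad23b and Zfand2a, beside 8.33% of all genes. Sem1 is of note as background, since its small protein is both a lid subunit and a binding partner of BRCA2. It had 823, 703 and 914 normalized counts in shBrca2 and 1053, 648 and 716 in shControl, a log2 fold change of 0.014 with a 95% interval from -0.36 to 0.39. Pomp, which matures the 20S core, had 741, 856 and 734 in shBrca2 and 715, 807 and 864 in shControl, a log2 fold change of -0.033 with an interval from -0.33 to 0.26. Adrm1, a ubiquitin receptor of the base, had 61.3, 69.95 and 97.5 in shBrca2 and 141, 80.5 and 73.2 in shControl, a log2 fold change of -0.36 with an interval from -0.94 to 0.23.

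Among 15 of 17 genes for transcriptional control of the proteasome, 0 were called, beside 1.27% of all genes with an adjusted p. At an unadjusted p under 0.05, DESeq2 picked 1 of the 15, Ngly1, beside 8.33% of all genes. Nfe2l1, the factor that raises proteasome genes when the proteasome is blocked, had 221, 184 and 161 normalized counts in shBrca2 and 203, 256 and 245 in shControl. Its groups overlapped through shBrca2 replicate 1, with a log2 fold change of -0.32 ± 0.20 (SE, adjusted p = 0.712 by DESeq2). The NF-Y subunits Nfya, Nfyb and Nfyc had log2 fold changes of -0.55, -0.13 and 0.10, none called, and Hsf1 had -0.42 ± 0.22 (SE, adjusted p = 0.589 by DESeq2).

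Upstream of the proteasome, 0 of 14 genes of the p97 segregase, which extracts ubiquitin-tagged proteins, were called. For ubiquitin and its activation, 0 of the 14 analysed of 18 genes were called. Over all genes with an adjusted p, 1.27% were called. At an unadjusted p under 0.05 by DESeq2 these lists held 0 and 1 gene, the latter the conjugating enzyme Ube2d1, beside 8.33% of all genes. The median log2 fold change was 0.045 for the p97 genes, 0.064 for the ubiquitin genes, -0.0095 for the components outside the Psm names, -0.10 for the transcriptional regulators and -0.053 for the antigen processing companions, beside -0.00034 for all genes. By the edgeR full rule each of these lists also held 0 called genes, beside 1.33% of all genes tested.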

How the data were processed

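RNA was measured in 6 libraries, 3 labelled shBrca2 and 3 labelled shControl. The table that the authors deposited gives raw, whole-number counts by gene symbol, with each library in its own column and no normalization or pooling. Per the labels, a modified MARS-seq protocol reads the 3' ends of transcripts, and the submitters' processing notes name bcl2fastq, cutadapt, STAR 2.4.2a, HTSeq, DESeq2 and the mm10 build, with no roles given. The annotation, the use of strand and the use of molecular identifiers are not given in the sources used here. Genes with a near copy or an overlapping gene are therefore uncertain. The standard errors reflect counting error and the spread between these libraries, and do not cover reads assigned to the wrong gene. By GENCODE vM39, 30 of the 45 members overlap another gene, 25 of them on the opposite strand. The table lists 10616 genes, 0 of them mitochondrial.

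Groups came from the source names. Replicates were numbered in accession order, the labels give no batch, and none was fitted. A fit over all genes with DESeq2 1.42.0 in R 4.3.3 used a likelihood ratio test of group, median-of-ratios size factors and Benjamini-Hochberg adjustment over 9997 genes, following the study's methods. Fold changes are shBrca2 over shControl, unshrunken, and intervals are 1.96 SE. In a further 619 genes DESeq2 gave no adjusted p. Deviations by library used log2(normalized count + 0.5), and the main axis log2(normalized count + 1). Libraries of the same group differed by a chi-square of at least 4.33 for each degree of freedom, so no pair matched within counting noise. The script was tested on simulated data.

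The members, the subcomplexes and the gene lists were chosen with earlier results of these data known, and Psme2b was added to its subcomplex after the table was seen. Genes named with values were the catalytic subunits, Psme1, Psme2, any called member, the 4 of smallest p in each direction, the most and least abundant, Brca2, Sem1, Pomp, Adrm1 and Nfe2l1. Others were named after their values were seen. Alternatives were edgeR 4.0.16, the Wald test, TMM or total-count factors, no independent filter, at least 10 counts in 3 libraries, other thresholds, other denominators and each library left out. Positions and promoters came from RefSeq on GRCm38.p6, with all 45 members matched by symbol, and the first listed window per gene was used. No window was found for Psmb1, Psmb2, Psmb7, Psmc3, Psmd3, Psmd7 and Psmg2.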

Additional observations from a re-analysis of the deposited data

How the results depend on the processing

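The count of called proteasome genes was 0 under each alternative with all libraries and a fold minimum, and 1 (Psma7) with no fold change minimum. Across the fits that each left out a library it ranged from 0 to 1, and all genes called from 47 (without shBrca2 replicate 3) to 140, with 127 in all libraries, 55 without shControl replicate 2 and 81 without shBrca2 replicate 1. Brca2 ranged from -1.70 to -1.46 across those fits and lost its call in 3, without shBrca2 replicate 2 (adjusted p = 0.152 by DESeq2), shBrca2 replicate 3 (0.233) and shControl replicate 2 (0.371). With TMM factors and with the count filter DESeq2 gave it no adjusted p, so no value is given there. No paired analysis was possible because the labels give the libraries no replicate numbers shared between the groups.

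Median log2 fold changes, over the same left-out fits, ranged from -0.065 to 0.020 for all members, from 0.19 to 0.45 for the alpha ring, from -0.081 to 0.082 for the structural beta subunits, from -0.062 to 0.19 for the constitutive catalytic subunits from -0.095 to 0.075 for the base subunits without ATPase, from -0.073 to 0.061 for the ATPases, from -0.097 to 0.024 for the lid, from -0.29 to -0.068 for the activators and from -0.18 to -0.037 for the assembly chaperones. The share of counts in proteasome genes was 0.047 percentage points higher in shBrca2 and ranged from 0.027 to 0.066. Of 533 comparisons of a single member with an alternative, 504 kept direction and call, 28 changed sign and 1 gained a call, and the sign changes all came from leaving out a library. With all libraries, the members that changed sign lay between -0.19 and 0.14. Over the left-out fits they ranged from -0.37 to 0.018 for Psma3, -0.20 to 0.070 for Psmb10, -0.32 to 0.13 for Psmb3, -0.062 to 0.19 for Psmb7, -0.13 to 0.074 for Psmc2, -0.18 to 0.12 for Psmc3, -0.16 to 0.072 for Psmc4, -0.14 to 0.12 for Psmd11, -0.082 to 0.089 for Psmd12, -0.20 to 0.13 for Psmd13, -0.045 to 0.29 for Psmd14, -0.20 to 0.075 for Psmd2, -0.019 to 0.092 for Psmd4, -0.13 to 0.0043 for Psmd7, -0.040 to 0.24 for Psme2, -0.31 to 0.16 for Psmf1 and -0.23 to 0.020 for Psmg4. Without changing sign, Psme3 ranged from -0.40 to -0.21, Psmg1 from 0.23 to 0.53 and Psmg2 from -0.40 to -0.17. The cause was not tested. No scaling moved the median of all genes by over 0.1. Low counts limit Psma3, Psme2b and Psmf1 most.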
